A study of Mus musculus with 2 samples.

Results

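Lysosome genes were read in mouse CD4 T cells that lacked or carried Menin, the product of Men1 and a scaffold that brings histone methyltransferases to promoters. The set comprised 45 genes in 7 classes: 10 glycosidases, 5 sulfatases, 10 cathepsins and other proteases, 7 lipid hydrolases and lipid-binding proteins, 6 membrane proteins, 4 genes of the proton pump and 3 regulators. A gene belonged to the set by name, and its probes were found through the transcript that the array annotation assigns to each probe. All 45 genes had a probe, 70 of the 41174 probes in all, out of 18434 genes that could be named. Menin KO cells gave 1 array and Menin WT cells gave 1 array, both of Agilent's single-colour type and on 1 slide. Both groups were CD4 T cells from the spleen of female C57BL/6J mice, selected as CD4+CD62L+ cells. Stimulation lasted 2 days, on immobilized anti-TCR-β (3 µg/ml) and anti-CD28 (1 µg/ml), and 2.5 ng/ml of IL-2 was added. After transfer to another plate, the cells spent 3 more days in as much IL-2. The labels used here do not give the way Men1 was deleted, the cells in which it was deleted or the number of mice behind each sample.

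The lysosome is the acidic compartment in which cells take apart proteins, glycans, glycosaminoglycans and lipids. Many of its enzymes remove 1 unit after another from the end of a chain, a proton pump in the membrane keeps the lumen acidic, and heavily glycosylated membrane proteins line the inside. The transcription factors TFEB and TFE3 move to the nucleus when nutrient signalling through mTORC1 falls and bind an E-box in the promoters of many lysosome genes, called the CLEAR element. Lysosomal beta-galactosidase, encoded by Glb1, is the enzyme behind the senescence stain, and cathepsins also process cytotoxic granule enzymes and antigens in immune cells.

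Each array was scaled to its 75th percentile of signal, and differences are given as Menin KO over Menin WT (fold) or Menin KO minus Menin WT (log2). With 1 array a group there was no test and no p-value. Probes printed several times gave the scatter among spots: the log2 difference had an SD of 0.0541 over spots at signals of 100 or more (110 probes) and of 0.314 at dimmer signals (36 probes). This spread covers spots only and leaves out mice, cultures, RNA preparations and hybridisations. All 45 lysosome genes were well above background on both arrays, and only Tfeb had a signal under 100 on both. In bulk RNA, a larger number of cells expressing a gene and more of its RNA per cell cannot be told apart. Men1 had a signal of 459 in Menin KO cells, against 1081 in Menin WT cells, on 1 probe whose place relative to the deleted part is not known here. All 6 markers listed for CD4 T cells were well above background on both arrays, but only Cd4 separates them from CD8 T cells. Lower in Menin KO were 5 of the 6, among them Cd4 itself (279 in Menin KO, 443 in Menin WT) and Cd5 (16739 in Menin KO, 55133 in Menin WT, 3.32-fold lower). Their summed signal was 94414 in Menin KO and 135990 in Menin WT, a gap that lay mostly in Cd5. Cd3d and Cd3e differed little (log2 differences -0.19 and -0.20), and Cd3g was higher (0.37). The CD8 T cell marker Cd8a had 3213 in Menin KO and 312 in Menin WT.

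Most lysosome genes lay slightly above 0, and a few proteases and a sulfatase stood far above the rest. Of the 45 genes, 34 were higher in Menin KO and 11 lower, and the median log2 difference was 0.27. After the normexp background correction it was 0.46, or 0.28 with 6 aberrant Menin WT backgrounds replaced. The sign of 8 genes near 0 (Ctsb, Fuca1, Galns, Lamp1, Mcoln1, Scarb2, Sgsh and Tfe3) turned under at least 1 alternative processing. Over all 13510 named genes the median was -0.01 and 49.5% were above 0. At least 2-fold higher in Menin KO were 5 lysosome genes (Ctsh, Lgmn, Arsb, Ctsl and Ctsd), which is 11.1% of the set. The share among all named genes was 10.8% (8.86% of the 12475 measured on both arrays), so the number of large differences in the set was near the background. No lysosome gene was at least 2-fold lower, against 5.14% of all named genes and 4.51% of those measured on both arrays, although Lipa reached the limit with median centring. At least 1.5-fold higher were 11 genes, 24.4% of the set, against 17.3% of all named genes and 14.9% of those measured on both arrays. At least 1.5-fold lower were 3 genes (Lipa, Ctss and Hexa), 6.67% of the set, against 12.7% of all named genes and 12.2% of those measured on both arrays. By class the median was 0.55 for glycosidases, 0.54 for proteases, 0.28 for sulfatases, 0.21 for lipid hydrolases and lipid-binding proteins, 0.20 for the proton pump, 0.18 for regulators (-0.15 after normexp) and 0.12 for membrane proteins. After normexp proteases, at 0.77, lay above glycosidases, at 0.60. With the aberrant backgrounds replaced, proteases lay at 0.56 and glycosidases at 0.50.

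**Figure D1:**
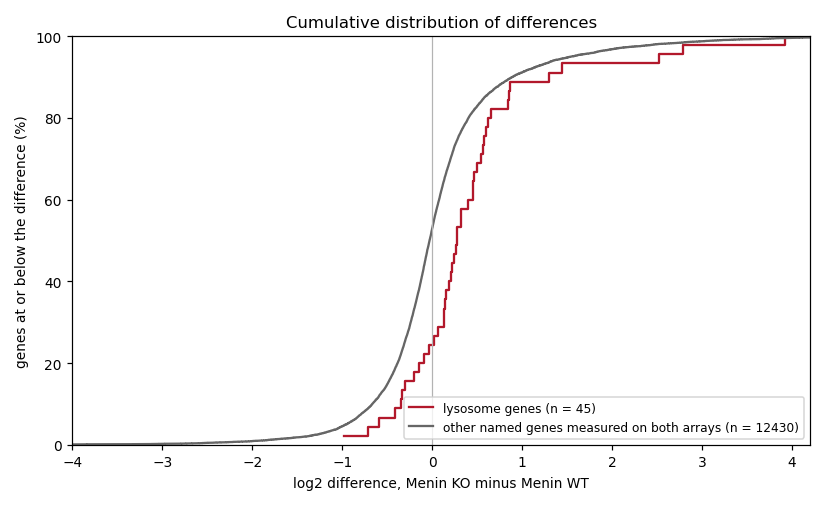
Cumulative share of genes (vertical axis, percent) at or below each log2 difference, Menin KO minus Menin WT (horizontal axis), for the 45 lysosome genes and for the 12430 other named genes measured on both arrays. The curve of the lysosome genes lies to the right over most of its course, with a median of 0.27, and 5 genes lie beyond a difference of 1.

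RefSeq promoter windows (build GRCm38.p6, 250 bases before to 50 after a start) were at hand for 39 of the 45 genes. Asah1, Atp6v1h, Ctsb, Ctsh, Galns and Npc1 had none and entered no motif count or median, although Ctsh had the largest difference of the set. They were searched on both strands for CACGTG, the E-box core, for TCACGTGA, the same core with a base more on each side, and for the 10-letter palindromic CLEAR consensus, each of which contains the shorter ones. CACGTG stood in a window of 15 of the 39 genes (38.5%), against 8.09% of all 27025 genes with a window and 11.2% of the 10718 protein-coding genes measured on the arrays. TCACGTGA stood in 7 of 39 (17.9%), against 2.05% of the measured coding genes, and the 10-letter consensus in 1 (Cln3), against 0.718%. The 15 genes with CACGTG had a median log2 difference of 0.46, with 13 above 0 and a range of -0.21 to 2.79. The 24 without it had a median of 0.21, with 16 above 0 and a range of -0.98 to 2.52, so the ranges overlapped widely. The genes with TCACGTGA were Atp6v0d1, Atp6v1a, Cln3, Ctsa, Ctsd, Gla and Mcoln1, and their median was 0.40, against 0.27 for the 32 without it. These matches are letters in a window and were not tested as binding sites.

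The windows of Glb1 and of 4 of the genes at least 2-fold higher in Menin KO are shown for their matches and their differing layouts, with that of Cln3 for the full consensus. Capitals mark the longest of the motifs at each match. The order is Glb1 at chr9:114400828-114401127 (plus strand), Ctsd at chr7:142387778-142388077 (minus strand), Ctsl at chr13:64370471-64370770 (minus strand), Lgmn at chr12:102439043-102439342 (minus strand), Arsb at chr13:93771429-93771728 (plus strand) and Cln3 at chr7:126583187-126583486 (minus strand).
Glb1: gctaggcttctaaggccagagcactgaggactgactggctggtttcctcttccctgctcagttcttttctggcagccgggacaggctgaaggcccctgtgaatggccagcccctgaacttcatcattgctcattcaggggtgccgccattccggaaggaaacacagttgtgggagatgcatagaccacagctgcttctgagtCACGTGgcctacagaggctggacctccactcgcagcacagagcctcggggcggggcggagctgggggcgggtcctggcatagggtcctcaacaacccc
Ctsd: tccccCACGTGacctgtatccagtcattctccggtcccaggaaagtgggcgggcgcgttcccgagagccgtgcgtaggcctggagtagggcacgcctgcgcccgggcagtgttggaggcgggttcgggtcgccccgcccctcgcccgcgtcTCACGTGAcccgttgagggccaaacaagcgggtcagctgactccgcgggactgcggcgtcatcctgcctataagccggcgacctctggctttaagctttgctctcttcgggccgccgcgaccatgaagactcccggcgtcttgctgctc
Ctsl: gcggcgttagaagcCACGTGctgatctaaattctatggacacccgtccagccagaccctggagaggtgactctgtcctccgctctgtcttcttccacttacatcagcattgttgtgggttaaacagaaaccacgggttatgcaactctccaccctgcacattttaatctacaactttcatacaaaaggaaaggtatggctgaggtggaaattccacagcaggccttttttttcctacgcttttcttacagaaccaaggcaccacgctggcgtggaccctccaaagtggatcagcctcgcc
Lgmn: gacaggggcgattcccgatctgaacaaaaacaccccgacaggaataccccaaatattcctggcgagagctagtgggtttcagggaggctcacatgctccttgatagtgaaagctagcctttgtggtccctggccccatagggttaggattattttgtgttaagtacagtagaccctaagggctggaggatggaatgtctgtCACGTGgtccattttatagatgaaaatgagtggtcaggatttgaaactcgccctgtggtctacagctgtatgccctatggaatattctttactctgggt
Arsb: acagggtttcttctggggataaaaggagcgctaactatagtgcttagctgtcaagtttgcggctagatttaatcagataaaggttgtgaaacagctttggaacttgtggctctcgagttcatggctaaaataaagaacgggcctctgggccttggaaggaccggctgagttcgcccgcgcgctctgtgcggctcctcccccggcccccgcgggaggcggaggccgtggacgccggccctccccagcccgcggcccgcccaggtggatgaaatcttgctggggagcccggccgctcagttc
Cln3: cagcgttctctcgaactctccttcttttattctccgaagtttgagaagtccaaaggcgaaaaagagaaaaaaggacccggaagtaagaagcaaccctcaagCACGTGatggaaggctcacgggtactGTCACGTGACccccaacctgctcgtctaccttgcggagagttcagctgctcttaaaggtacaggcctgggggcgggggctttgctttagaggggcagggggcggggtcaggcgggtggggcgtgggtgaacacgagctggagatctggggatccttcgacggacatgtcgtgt
The Glb1 match begins 48 bases before the start. Ctsd holds 2 matches, beginning 245 and 99 bases before the start, the nearer one in its 8-letter form. The Ctsl match lies far upstream, 236 bases before the start. The Lgmn match begins 49 bases before the start of the window shown, while the window of its other start held none. Arsb has no match in this window, although it had the third largest difference of the set. Cln3 holds 2 matches in the window shown, 149 and 123 bases before the start, and the nearer one is the 10-letter consensus. The window of its other start held none.

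Glycosidases, which remove sugars from the ends of glycan chains, had a median close to that of the proteases, and 8 of 10 were higher in Menin KO without any reaching 2-fold. After normexp Glb1 passed this limit at a log2 difference of 1.06, and with the aberrant Menin WT backgrounds replaced it had 0.86. Glb1, the beta-galactosidase that cleaves terminal galactose from gangliosides and keratan sulfate, had a signal of 8955 in Menin KO, against 4929 in Menin WT, on its brighter probe. The fold was 1.80, and it was the largest of the class. Its dimmer probe had 1332 in Menin KO and 797 in Menin WT, a log2 difference of 0.73 beside 0.85 on the brighter one. The probes of Glb1 thus gave nearly the same difference.

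Gusb, the beta-glucuronidase that acts on glycosaminoglycans, was the only lysosome gene printed several times. Its 8 usable spots on the Menin KO array ran from 5336 through a median of 5456 to 5506, against 3275, 3456 and 3552 for the 10 usable spots on the Menin WT array. The spots of the arrays did not overlap. Over the 8 spots usable on both, the log2 difference was 0.64 ± 0.03 (SD over spots), from 0.61 to 0.71, which is the spread of printing and scanning alone.

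Between 1.4-fold and 1.6-fold higher were also Gla, the alpha-galactosidase that is deficient in Fabry disease (812 in Menin KO, 532 in Menin WT), and Gaa, the acid alpha-glucosidase that degrades lysosomal glycogen (3777 in Menin KO, 2516 in Menin WT). Neu1, the sialidase that opens many glycan chains for further digestion, had 15584 in Menin KO and 10444 in Menin WT. Its second probe gave a log2 difference of 0.61, close to 0.56 on the first. Manba, the beta-mannosidase, was 1.45-fold higher, with probes at 0.54 and 0.50. Smaller differences were found for Man2b1, the alpha-mannosidase (1.25-fold higher), and Naglu, an alpha-N-acetylglucosaminidase of heparan sulfate breakdown (1.20-fold higher). Fuca1, the alpha-fucosidase, was near 0 on both of its probes (-0.09 and -0.18).

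Hexa was the exception of this class. It encodes the alpha subunit of beta-hexosaminidase A, which trims the ganglioside GM2, and had a signal of 2242 in Menin KO, against 3338 in Menin WT, a log2 difference of -0.59. Gm2a, the activator protein that presents GM2 to this enzyme, had one of 0.21, so Hexa and its activator lay on opposite sides of 0.

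Of the sulfatases, which remove sulfate groups from glycosaminoglycans and sulfatides, Arsb alone was far from 0. It encodes arylsulfatase B, which acts on dermatan and chondroitin sulfate. Its brighter probe had 1391 in Menin KO, against 241 in Menin WT, a 5.72-fold difference. Its dimmer probe had 144 in Menin KO and 31.3 in Menin WT, a log2 difference of 2.19 beside 2.52.

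The other sulfatases were much closer on the arrays. Arsa, which acts on sulfatide, had 5059 in Menin KO and 3641 in Menin WT (log2 difference 0.46). Ids, which acts on heparan and dermatan sulfate, had 3720 in Menin KO and 3041 in Menin WT (0.28), and its other probes were not well above background in Menin WT. Galns, which acts on keratan and chondroitin sulfate, was nearly equal with 1242 in Menin KO and 1214 in Menin WT (0.02). Sgsh, which acts on heparan sulfate, had 2012 in Menin KO and 1812 in Menin WT on its bright probe (0.14). A dim Sgsh probe with 23.7 in Menin KO and 60.0 in Menin WT went the other way, with a log2 difference of -1.36.

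**Figure D2:**
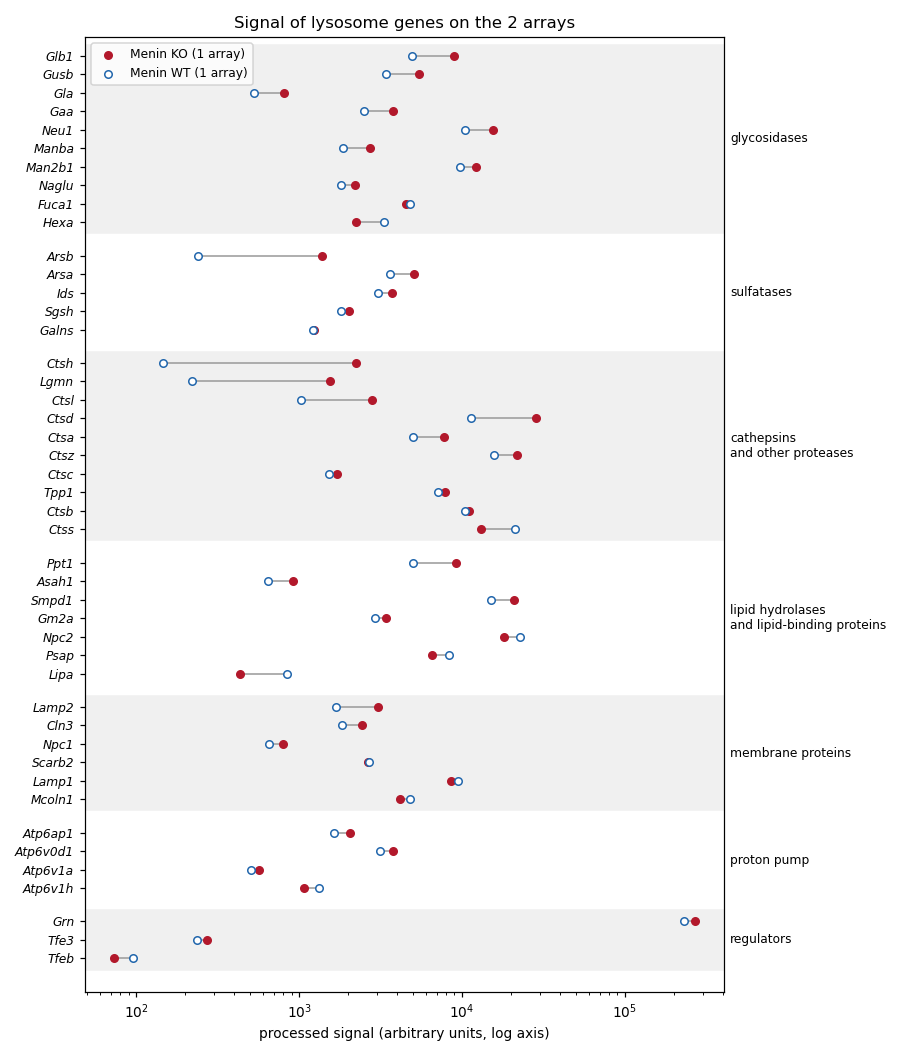
Processed signal (horizontal axis, arbitrary units, log scale) of the brightest probe of each lysosome gene on the Menin KO array (filled) and the Menin WT array (open), with genes grouped by class and ordered by difference. The widest gaps are those of Ctsh (2222 in Menin KO, 145 in Menin WT), Lgmn and Arsb. Signals of different genes come from different probes and are to be compared only within a gene.

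The proteases held 4 of the 5 genes at least 2-fold higher, and they differed among themselves more than any other class, from -0.72 to 3.92. Ctsh, an aminopeptidase of the cysteine cathepsins, had a signal of 2222 in Menin KO, against 145 in Menin WT. This 15.1-fold difference was the largest of the set. Lgmn, the asparaginyl endopeptidase legumain that trims other cathepsins to their mature forms, had 1544 in Menin KO and 221 in Menin WT, a 6.93-fold difference. Each was read by 1 probe.

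Ctsl, a cysteine endopeptidase, had 2813 in Menin KO, against 1029 in Menin WT, a 2.71-fold difference. Ctsd, the main aspartic protease of the lysosome, had 28422 in Menin KO and 11426 in Menin WT on its bright probe, a 2.47-fold difference. On its second probe it had 6121 in Menin KO and 2465 in Menin WT, and the log2 difference was 1.30 on both. The pair of Ctsd probes agreed more closely than the spot-to-spot SD.

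Not all proteases were higher. Ctss, the endopeptidase that degrades the MHC class II invariant chain in antigen-presenting cells, had 13059 in Menin KO, against 21298 in Menin WT, a 1.65-fold lower signal and the only one below 0 in its class. Ctsa, the carboxypeptidase that also protects beta-galactosidase and Neu1 in a shared complex, had 7777 in Menin KO and 5024 in Menin WT (log2 difference 0.62). A second bright probe of Ctsa also gave 0.62, whereas a probe with only 13.9 in Menin KO and 18.3 in Menin WT gave -0.41. Ctsa, Glb1 and Neu1, the 3 partners of that complex, were 1.53-fold, 1.80-fold and 1.48-fold higher.

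The remaining proteases were less than 1.5-fold apart on their brightest probes. Ctsz, a carboxypeptidase, was 1.37-fold higher and had 21784 in Menin KO and 15760 in Menin WT, with 0.45 and 0.42 on its probes. Ctsc, the dipeptidyl peptidase that activates granzymes in cytotoxic lymphocytes, had 1703 in Menin KO and 1538 in Menin WT (log2 difference 0.13). Tpp1, a tripeptidyl peptidase, had log2 differences of 0.13 on its bright and 0.62 on its dim probe. Ctsb, a cysteine endopeptidase, had 11020 in Menin KO and 10459 in Menin WT on its bright probe (0.06) and -0.32 on a dim one. The granzyme-activating Ctsc was thus 1 of the proteases with the smallest difference.

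Markers of cells that carry much lysosomal protease were also read, and a summed signal adds different probes, so that the brightest one sets it. Of 11 macrophage and monocyte markers 6 were well above background in Menin KO and 5 in Menin WT, with a summed signal of 703 in Menin KO, against 383 in Menin WT. C1qa, C1qc, Itgam and Mertk were not well above background on either array, Lyz2 was so in Menin WT only, and Csf1r had 21.0 in Menin KO and 27.3 in Menin WT. Mpeg1, well above background on both arrays, was 1.56-fold lower in Menin KO (log2 difference -0.64). C1qb, also well above background on both arrays, was nearly equal (log2 difference 0.00). Higher in Menin KO was Cd14 (256 in Menin KO, 7.25-fold over Menin WT). So were Fcgr3 and Adgre1, which were well above background in Menin KO only (at least 9.50-fold and 5.08-fold higher). Of 4 dendritic cell markers 3 were well above background on each array, with a summed signal of 704 in Menin KO and 86.0 in Menin WT. Itgax, an integrin chain that activated T cells can also carry, was 30.8-fold higher, with 623 in Menin KO, while Flt3 and Zbtb46 were 1.32-fold and 1.20-fold higher and Siglech was not well above background on either. Natural killer cell markers summed to 8997 in Menin KO and 2259 in Menin WT, with 5 and 4 of 5 well above background. Fcer1g was 7.54-fold higher (5087 in Menin KO, 669 in Menin WT), Klrb1c 5.39-fold, Tyrobp 4.82-fold and Klrd1 1.62-fold, and Ncr1, the receptor that defines these cells, had 21.7 in Menin KO and was not well above background in Menin WT. B cell markers summed to 1595 in Menin KO and 903 in Menin WT, with 4 and 3 of 5 well above background and Pax5 on neither, and Ms4a1 was 2.01-fold and Cd79b 1.72-fold higher. Mast cell and basophil markers summed to 636 in Menin KO and 98.7 in Menin WT, with 4 and 3 of 5 well above background and Ms4a2 on neither. Cpa3 was 12.9-fold higher (367 in Menin KO, 28.2 in Menin WT), Mcpt8 at least 11.4-fold, Fcer1a 2.33-fold and Prss34 1.18-fold. The part of such cells, and of the cells behind the Cd8a signal, in the protease and sulfatase differences was not tested.

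The lipid hydrolases and lipid-binding proteins split, with 4 of 7 higher and 3 lower in Menin KO. Ppt1, which removes palmitate from proteins, had 9199 in Menin KO, against 5021 in Menin WT, on its bright probe, a 1.82-fold difference. On its other probe it had 2598 in Menin KO and 1172 in Menin WT, which is past the 2-fold limit at a log2 difference of 1.14. Asah1, the acid ceramidase, had 913 in Menin KO and 642 in Menin WT (0.50). Smpd1, the acid sphingomyelinase, had 20888 in Menin KO and 15126 in Menin WT (0.45). Gm2a was 1.16-fold higher, with 0.21 and 0.34 on its probes. The enzymes on either side of ceramide were thus both higher by similar amounts.

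Lipa had the lowest value of the set. It encodes the acid lipase that frees cholesterol and fatty acids from lipoproteins, and had 432 in Menin KO, against 845 in Menin WT, a 1.97-fold lower signal just short of the 2-fold limit. Npc2, the soluble carrier that takes up the freed cholesterol, was also lower, with 18196 in Menin KO and 22798 in Menin WT (log2 difference -0.34). Npc1, the membrane protein that receives cholesterol from Npc2, had 798 in Menin KO and 655 in Menin WT (0.27). Psap, the precursor of the saposins that assist sphingolipid hydrolases, had 6595 in Menin KO and 8305 in Menin WT, and both of its probes gave nearly the same value (-0.35 and -0.34). After normexp both Npc2, at -0.07, and Psap, at -0.10, lay closer to 0. With the aberrant Menin WT backgrounds replaced, Npc2 had -0.30 and Psap -0.32.

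Membrane proteins differed little, with 3 of 6 above and 3 below 0. Lamp2, a major glycoprotein of the lysosomal membrane with a role in autophagy, was the exception, and its probes were assigned to different RefSeq transcripts. One had 3058 in Menin KO and 1694 in Menin WT (log2 difference 0.84), the other 2159 in Menin KO and 1582 in Menin WT (0.44). Lamp1, its close relative, had 8603 in Menin KO and 9418 in Menin WT (-0.14). The LAMP pair therefore lay on opposite sides of 0.

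Of the others, Cln3, a membrane protein lost in juvenile Batten disease, had 2443 in Menin KO and 1839 in Menin WT (log2 difference 0.40). Scarb2, the receptor that carries beta-glucocerebrosidase to the lysosome, had log2 differences of -0.03 on its bright probe and -0.11 on its other one. Mcoln1, the calcium channel of the lysosomal membrane that acts upstream of TFEB, had 4172 in Menin KO and 4771 in Menin WT (-0.21).

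The 4 proton pump genes stayed within 0.32 of 0. Atp6ap1, an accessory subunit, had 2051 in Menin KO and 1629 in Menin WT (log2 difference 0.32). Atp6v0d1, a subunit of the membrane sector, had 3756 in Menin KO and 3146 in Menin WT (0.24). Atp6v1a, the catalytic subunit, had 566 in Menin KO and 506 in Menin WT (0.15), and its other probe gave 0.06. Atp6v1h, a regulatory subunit, had 1075 in Menin KO and 1319 in Menin WT, with -0.31 on both of its probes.

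The regulators showed no large difference on their brightest probes. Tfeb had a signal of 73.1 in Menin KO, against 96.2 in Menin WT (log2 difference -0.41), beside a spot-to-spot SD of 0.314 at such signals. Its difference was -0.91 after normexp, and -0.38 with the aberrant Menin WT backgrounds replaced. Tfe3 had 272 in Menin KO and 237 in Menin WT (0.18), with 0.29 on a dimmer probe. Grn encodes progranulin, a secreted and lysosomal protein whose fragments support lysosomal enzymes. Its probes disagreed, with 268904 in Menin KO and 231178 in Menin WT on one (0.21) and 7385 in Menin KO and 2978 in Menin WT on the other (1.30). The brighter Grn probe was not marked as saturated on either array.

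**Figure D3:**
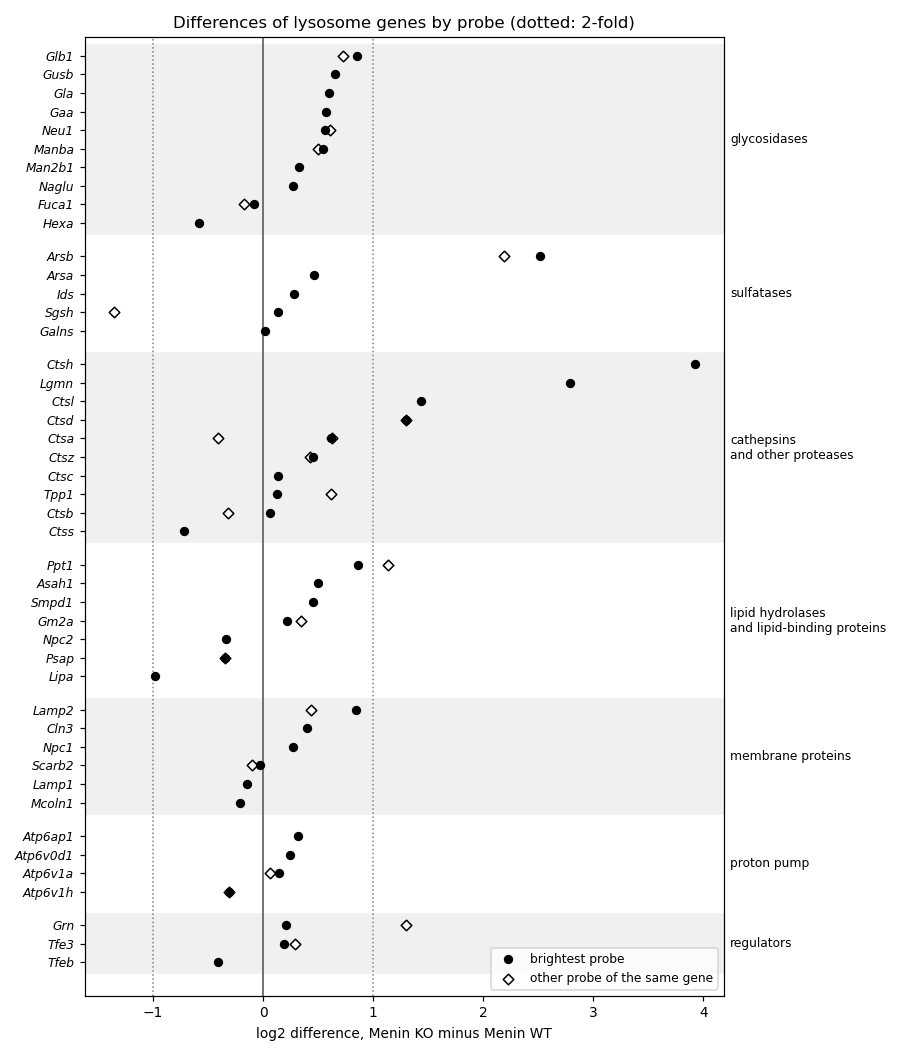
Log2 difference, Menin KO minus Menin WT (horizontal axis), of every lysosome gene probe that was well above background on both arrays, with the brightest probe of a gene filled and other probes open, in classes. Dotted lines mark 2-fold. The probes of Ctsd, Psap and Atp6v1h coincide, while those of Grn, Sgsh and Ctsa lie over 0.5 apart.

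Of the 20 lysosome genes with several probes well above background on both arrays, 12 had probes within 0.2 of each other on the log2 scale. The differences lay over 0.5 apart for 3 genes (Grn, Sgsh and Ctsa) and on opposite sides of 0 for 3 (Sgsh, Ctsa and Ctsb). In each gene with opposite signs the deviating probe was a dim one. Of the 5 genes at least 2-fold higher, Arsb and Ctsd had a second probe, and it was past the limit for both.

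Other genes of the lysosome and of the pathways around it were read from lists outside the set, and their counts stand against 10.8% of all named genes at least 2-fold higher, 5.14% at least 2-fold lower and 49.5% above 0. Other lysosomal hydrolases had a median of 0.42, with 14 of 21 above 0, 2 at least 2-fold higher (9.52%, near the background of 10.8%) and none at least 2-fold lower. The higher ones were Galc, the galactosylceramidase, on dim signals (38.6 in Menin KO, 16.9 in Menin WT), and Ctsw, a cathepsin of cytotoxic lymphocytes (5278 in Menin KO, 2531 in Menin WT). Other lysosomal membrane proteins had a median of 0.09, with 3 of 25 at least 2-fold higher and none lower. Cd63, a tetraspanin of lysosomes and secretory granules, was 6.61-fold higher (598 in Menin KO, 89.7 in Menin WT), Litaf 2.17-fold and Laptm4b 2.13-fold. As in the set, the enzymes thus had a higher median than the membrane proteins.

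Further proton pump subunits had a median of 0.18, with 1 of 15 at least 2-fold higher (6.67%) and none lower. This was Atp6v0a1, a membrane-sector isoform, with 225 in Menin KO and 83.1 in Menin WT, a 2.68-fold difference. Of the 15, 2 entered with bounds on dim signals, Atp6v0e2 (at least 1.97-fold higher) and Atp6v0d2 (at least 1.09-fold higher). The sorting genes, which serve delivery to the lysosome by the mannose 6-phosphate tag and by other routes, had a median of 0.00, and 1 of 15 was at least 2-fold higher. Gnptab, the phosphotransferase that makes the tag, had 572 in Menin KO and 248 in Menin WT, a 2.28-fold difference. Sort1 entered with a bound on dim signals (at least 1.86-fold higher). Fusion and positioning genes (HOPS and BORC) had a median of -0.05, with 1 of 17 at least 2-fold lower. This was Lyst, the regulator of granule size that is mutated in Chediak-Higashi syndrome, on dim signals (23.4 in Menin KO, 74.1 in Menin WT).

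The nutrient-sensing genes around Ragulator and mTORC1 had a median of 0.04, and none of 25 was at least 2-fold apart in either direction. Their list mixes parts of mTORC1 with its inhibitors, such as Tsc1 and Tsc2, so the median does not describe 1 activity. At least 1.5-fold lower were 4 genes (Fnip1, Sesn1, Tsc1 and Sesn3), 16% against 12.7% of all named genes. At least 1.5-fold higher were 0, against 17.3%. Autophagy genes had a median of 0.03, with 4 of 26 at least 2-fold higher (15.4%, against 10.8% of all named genes) and none lower. They were Wipi1, a phosphoinositide-binding protein of forming autophagosomes (348 in Menin KO, 106 in Menin WT), Atg7, the activating enzyme of LC3 conjugation (559 in Menin KO, 219 in Menin WT), Map1lc3a, an LC3 isoform (455 in Menin KO, 182 in Menin WT), and Optn, a cargo receptor (381 in Menin KO, 155 in Menin WT). The commonly read LC3 gene Map1lc3b had a log2 difference of 0.05, and the cargo receptor Sqstm1 one of 0.76. Map1lc3b and Sqstm1 were chosen after their values were seen.

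Inhibitors of cathepsins and granule proteases had the highest median of these lists. It was 0.97, with 9 of 10 above 0, 5 at least 2-fold higher and none at least 2-fold lower, against 49.5%, 10.8% and 5.14% of all named genes. Cst7, an endosomal cystatin of cytotoxic cells, had 17837 in Menin KO and 5553 in Menin WT, a 3.18-fold difference. Serpinb1a, an inhibitor of granule serine proteases, was 3.00-fold higher. Ctla2b and Ctla2a, whose products resemble the propeptide of cathepsin L, were 2.66-fold and 2.53-fold higher, but they are close copies whose probes may read each other. Cstb, the cytosolic inhibitor of cathepsins B, H and L, had 15642 in Menin KO and 6257 in Menin WT, and is named here after its value was seen. The proteases Ctsh and Ctsl and the inhibitors named here were thus higher on the Menin KO array. Other cathepsins were not, with Ctsb near 0 on its bright probe (0.06) and Ctss lower (-0.72). Of the inhibitors, Serpinb6b was lower (-0.49).

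**Figure D4:**
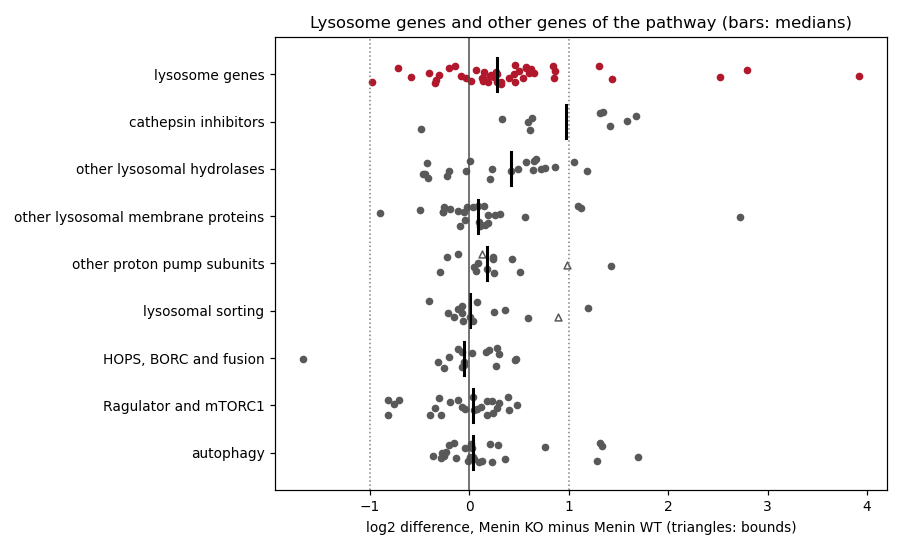
Log2 difference, Menin KO minus Menin WT (horizontal axis), of the 45 lysosome genes and of 8 lists of related genes, each point 1 gene, each triangle a bound and each bar a median. The median was 0.27 for the lysosome genes, 0.97 for the protease inhibitors, and between -0.05 and 0.42 for the other lists.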

How the data were processed

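Total RNA of 1 Menin KO and 1 Menin WT sample (500 ng each, labelled with Cy3 per the labels' protocols) was read on 2 arrays. The authors deposited, for every spot, a processed signal intensity. Per the file headers, Feature Extraction 10.7.3.1 subtracted background and detrended it without scaling between arrays (the submitters' processing notes give version 10.7). The authors' deposited value table holds log2 values, which equalled log2 of that signal minus a constant per array within 0.01 for 99.7% of probes on either array, which settles its scale, its centring and its direction. The columns had medians of -3.90 (Menin KO) and -3.97 (Menin WT).

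Spots with outlier flags were left out (103 in Menin KO, 115 in Menin WT, of 43379 non-control spots each), log2 signals were centred on the 75th percentile (650.3 in Menin KO, 644 in Menin WT), and spots of a probe were averaged. Of non-control spots, 63.5% in Menin KO and 59.5% in Menin WT were well above background, and none was saturated. Accessions were named through a RefSeq table of GRCm38.p6: of 41174 probes, 27050 had 1 symbol and 14124 none. A gene took its brightest probe well above background on at least 1 array. A gene so on 1 array only entered with a bound, taken against the dim array's own value or its lowest level that was well above background, whichever was higher. The size rule was 2-fold. Named were all 45 set genes, Men1, Bach2, up to 4 genes at least 2-fold apart per related list, and defining cell markers. Bach2 had 604 in Menin KO and 4643 in Menin WT. The genes and lists were chosen with earlier results of these data known. Alternatives were normexp (limma 3.58.1, offset 50), quantile, median and loess scaling, the authors' values, other probe choices, dim-probe filters, kept flags and a 1.5-fold limit. Median spot signals were used for normexp. Recovery of shifts put into probes well above background was tested on simulated data, while bounds, probe choice, alternatives and motif counts were not. The number of arrays limits the precision.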

Additional observations from a re-analysis of the deposited data

How the results depend on the processing

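Of the 45 lysosome genes, 37 kept their sign under all 11 alternatives other than the size rule, and Ctsh, Lgmn, Arsb, Ctsl and Ctsd stayed at least 2-fold higher under each. The 8 whose sign varied were Ctsb, Fuca1, Galns, Lamp1, Mcoln1, Scarb2, Sgsh and Tfe3. With a 1.5-fold limit the counts were 11 higher and 3 lower in the set, and 2338 higher and 1712 lower among all named genes. With median centring, and with the next brightest probe of each gene (an alternative chosen after seeing the data), 1 lysosome gene was at least 2-fold lower, Lipa and Sgsh in turn. After normexp the set's median was 0.46, Glb1 had 1.06, and 33 of the 45 genes moved by more than 0.160 (28 upward). This limit was the spot SD pooled over dim and bright probes, and is wider than the 0.0541 at signals of 100 or more. The class medians after normexp were 0.77 for proteases, 0.42 for lipid hydrolases and lipid-binding proteins, 0.48 for sulfatases and -0.15 for regulators. Over all named genes it gave 601 higher and 1682 lower, against 1458 and 694, so 26.3% of the calls were higher, against 67.8%. Its Menin WT fit had a residual background of -140.5 with 6 spots whose local background exceeded 200, and of -12.9 with those replaced. With them replaced the counts were 760 higher and 369 lower. The set's median was then 0.28, Glb1 had 0.86, and 3 of the 45 genes moved by more than 0.160 (0 upward). With no filter on dim probes 1113 genes were lower. No paired analysis was possible because each group had 1 array. For the same reason no array could be left out. Dim signals limit the values of Tfeb and of the dim Sgsh, Ctsa and Ctsb probes.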
